A study of Homo sapiens with 2 samples.

Results

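The genes described here make, load and deliver major histocompatibility complex (MHC) class I molecules in MDA-MB-231 cells, an established human line of triple-negative breast cancer. They are 10 of the 60978 genes in the table and were taken by name: HLA-B, HLA-C, HLA-E, HLA-F, B2M, TAP1, TAPBP, ERAP1, ERAP2 and NLRC5. Each of the 10 names had 1 row in the table, and 6 of the genes lie in the MHC on chromosome 6. The series concerns exosomes of M1 macrophages and an agent that the labels call CEL, and the data used here are RNA sequencing of the cancer cells alone. The CEL library came from cells incubated for 24 h with 1 µM CEL, and the Control library from cells incubated for 24 h, with no agent named in the labels. No genetic change is named for either culture. Each group is 1 library, so there is no replicate check of any difference, and every comparison is one of 2 libraries and not of 2 conditions.

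A class I molecule is a heavy chain, such as HLA-B, HLA-C, HLA-E or HLA-F, bound to the light chain beta-2 microglobulin, the product of B2M. Peptides cut by the proteasome are carried into the endoplasmic reticulum by the TAP1 and TAP2 transporter, trimmed by the aminopeptidases ERAP1 and ERAP2, and loaded onto the heavy chain in a complex held together by tapasin, the product of TAPBP. NLRC5 is a transactivator of class I promoters, where it acts with the RFX factors, and interferon and NF-kappaB signals also act on many of these promoters. CD8+ T cells read the loaded peptides on the cell surface.

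Promoter sequences are shown for 5 of the genes, because their products form the heavy chain, the light chain, the transporter and the loading bridge, and because they include TAPBP, whose ratio between the libraries was the lowest of the 10. Each is the RefSeq window from 250 bases before to 50 bases after the annotated start, in the build GRCh38.p14, read along the strand of the gene. Capitals mark matches on either strand to 3 motifs: the core of the interferon-stimulated response element (GAAANNGAAA), the NF-kappaB consensus, and the CCAAT box (CCAAT). The windows are chr6:31357130-31357429 on the minus strand for HLA-B, chr6:31272043-31272342 on the minus strand for HLA-C, chr15:44711267-44711566 on the plus strand for B2M, chr6:32853655-32853954 on the minus strand for TAP1 and chr6:33314029-33314328 on the minus strand for TAPBP.
HLA-B: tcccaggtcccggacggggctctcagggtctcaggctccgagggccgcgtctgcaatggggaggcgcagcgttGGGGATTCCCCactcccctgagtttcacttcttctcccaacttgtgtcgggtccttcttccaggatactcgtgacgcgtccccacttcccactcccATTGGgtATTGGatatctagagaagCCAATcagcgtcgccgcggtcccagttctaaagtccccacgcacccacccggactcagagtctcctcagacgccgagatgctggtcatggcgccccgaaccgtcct
HLA-C: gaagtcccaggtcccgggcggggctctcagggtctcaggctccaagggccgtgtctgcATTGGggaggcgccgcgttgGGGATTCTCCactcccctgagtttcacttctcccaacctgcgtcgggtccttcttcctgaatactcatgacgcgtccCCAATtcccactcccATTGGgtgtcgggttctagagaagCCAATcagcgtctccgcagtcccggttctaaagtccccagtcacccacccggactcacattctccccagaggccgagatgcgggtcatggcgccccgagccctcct
B2M: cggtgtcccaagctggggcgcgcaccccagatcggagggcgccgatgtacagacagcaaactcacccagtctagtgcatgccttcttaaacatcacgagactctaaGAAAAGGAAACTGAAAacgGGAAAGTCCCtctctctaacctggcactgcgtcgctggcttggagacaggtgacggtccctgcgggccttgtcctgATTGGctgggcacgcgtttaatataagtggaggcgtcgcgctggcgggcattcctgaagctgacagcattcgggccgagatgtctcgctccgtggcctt
TAP1: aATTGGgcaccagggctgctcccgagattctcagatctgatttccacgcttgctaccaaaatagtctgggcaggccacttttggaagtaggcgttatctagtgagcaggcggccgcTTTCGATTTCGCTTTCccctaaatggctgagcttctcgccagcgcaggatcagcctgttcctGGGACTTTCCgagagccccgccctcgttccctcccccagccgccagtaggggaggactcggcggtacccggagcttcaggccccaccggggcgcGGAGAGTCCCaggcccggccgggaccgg
TAPBP: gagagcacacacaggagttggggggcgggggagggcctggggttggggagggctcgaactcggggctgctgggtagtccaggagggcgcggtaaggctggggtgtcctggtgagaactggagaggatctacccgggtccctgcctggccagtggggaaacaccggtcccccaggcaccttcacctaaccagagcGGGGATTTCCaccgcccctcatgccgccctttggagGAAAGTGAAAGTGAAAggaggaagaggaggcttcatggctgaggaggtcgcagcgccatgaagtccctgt

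Windows were found for 8 of the 10 genes. HLA-E and NLRC5 had none. The response element core was present in at least 1 window of 6 of the 8 genes, against 3.57% of all 35116 windows in the RefSeq table. An NF-kappaB match was present in 6 of the 8 genes, against 5.91% of all windows, and a CCAAT box in 6 of the 8, against 34.6% of all windows. ERAP1, ERAP2 and TAP1 have 2 windows each, so these counts are per gene and the shares over the table are per window. In the TAPBP window the response element core is at position -20, counted from the annotated start with negative values upstream, where 2 overlapping matches make the run GAAAGTGAAAGTGAAA, and the NF-kappaB match is at -56. In the B2M window 2 overlapping matches to the response element core begin at -144 and the NF-kappaB match lies at -125, between them and the start. The TAP1 window holds 2 overlapping response element cores from -134 and 2 NF-kappaB matches. The HLA-B window has 1 NF-kappaB stretch from -177, palindromic except at its centre base and read as 4 overlapping matches. It has no response element core in these letters. HLA-B and HLA-C windows were identical at 88.5% of positions, and the window of HLA-F was identical to that of HLA-B at 79.7% and to that of HLA-C at 78.9%. A match is a description of letters and not a measurement of binding.

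All 10 genes were detected at 1 FPKM or more (reads scaled by gene length and library total) in at least 1 library, and all 10 had a lower level in the CEL library, as did 6851 (49.8%) of the 13745 genes that reached it. Differences are given as log2((CEL FPKM + 1)/(Control FPKM + 1)), which understates the change of low genes, or as the plain ratio of FPKM with a 95% interval that covers counting error only. On the first scale 4 of the 10, TAPBP, HLA-F, ERAP2 and HLA-B, were at least 1.5-fold lower, where 10.2% of the 13745 genes at 1 FPKM or more were. None of the 10 was at least 1.5-fold higher, where 8.97% of all such genes were. Only TAPBP was at least 2-fold lower on this scale, where 3.24% of all genes were, and none was 2-fold higher, where 2.70% were. The median difference was -0.46 over the 10 genes and 0.00 over all 13745 genes, whose middle 50% lay between -0.29 and 0.28. The counting interval of the ratio lay wholly below 1 for all 10 genes, and for 29.1% of all genes. These numbers describe 1 pair of libraries.

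**Figure D1:**
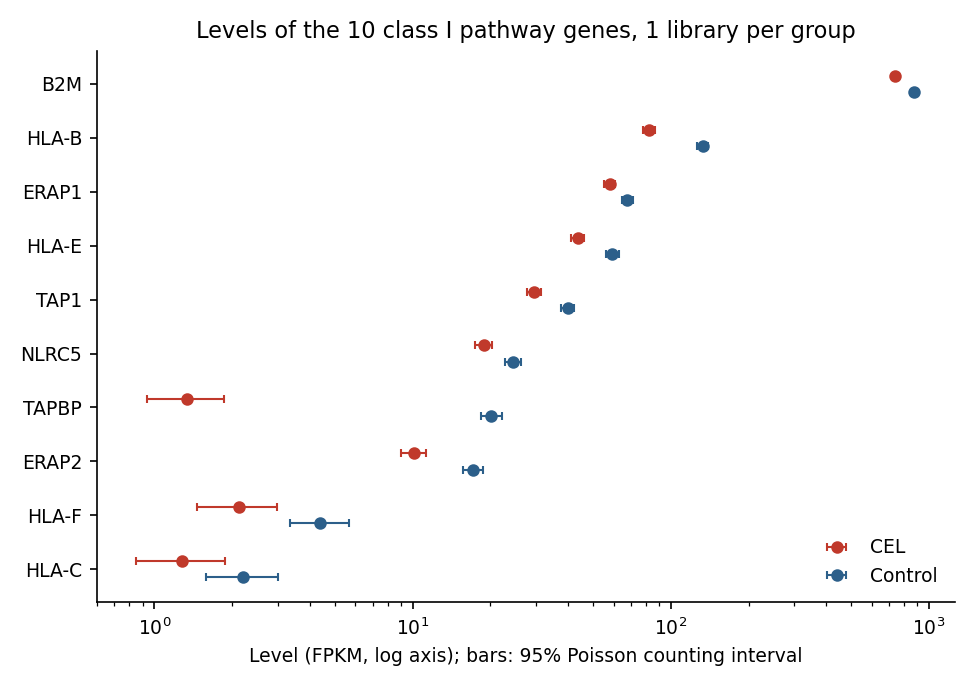
Level of each gene in FPKM on a log axis, with the CEL library above the Control library for each gene and bars for the 95% Poisson counting interval. B2M lies highest, at 737.1 FPKM in CEL and 873.3 FPKM in Control, and the 2 points of TAPBP lie farthest apart.

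The heavy chains covered a wide range of levels. HLA-B, a classical heavy chain, stood at 82.4 FPKM in the CEL library (1185 reads) and 132.9 FPKM in the Control library (1647 reads), 1.61-fold lower in CEL with a ratio of 0.620 (0.575 to 0.668). HLA-E, the ligand of the NKG2A receptor on natural killer and T cells, had 43.6 FPKM in CEL (1045 reads) and 59.3 FPKM in Control (1226 reads). Its ratio was 0.735 (0.676 to 0.798), short of the 1.5-fold mark. HLA-F, a non-classical heavy chain, had 2.12 FPKM in CEL (33 reads) and 4.39 FPKM in Control (59 reads). That is 2.07-fold lower as a plain ratio, with an interval of 1.33 to 3.28, and -0.79 on the scale with 1 FPKM added. HLA-C, the main class I ligand of killer cell immunoglobulin-like receptors, was listed at 1.28 FPKM in CEL (27 reads) and 2.21 FPKM in Control (40 reads), a ratio of 0.582 whose wide interval, 0.343 to 0.972, reflects the few reads. Of these 4 heavy chains 2 were at least 1.5-fold lower, where 10.2% of all genes were. Their median was -0.59, against 0.00 over all genes. These 4 are among the 10 genes counted above, and HLA-C and HLA-F rest on few reads.

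HLA-G, a non-classical heavy chain, was listed at 0 in both libraries. Across the stretch of chromosome 6 from 29 to 34 Mb, 82 of 182 protein-coding genes (45.1%) were at 0 in both libraries, against 207 of 859 (24.1%) on the rest of chromosome 6 and 4954 of 19699 (25.1%) outside the stretch. Among the rows at 0 in both were CSNK2B, the regulatory subunit of casein kinase 2, and GTF2H4, a subunit of the basal transcription factor TFIIH, both used by all cells and named here after their values were seen. A level of 0 in this stretch is therefore given as a listing and not as absence of the transcript. The cause was not tested.

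The table also has 31 unnamed rows on 6 alternate sequences of the MHC, and these held more reads than the named heavy chains. Together they had 21593 reads in CEL and 25160 reads in Control, a ratio of 0.740 (0.726 to 0.753) after scaling to the library totals. The 4 named HLA genes described above summed to 2290 reads in CEL and 2972 reads in Control, a ratio of 0.664 (0.628 to 0.701). The sources used here give no gene to these rows, so none was added to a named gene. The HLA levels above are those of the named rows and may miss reads that were counted on the alternate sequences, which was not tested.

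The light chain gene B2M was the most abundant of the 10, at 737.1 FPKM in CEL (12880 reads) and 873.3 FPKM in Control (13150 reads). Its ratio was 0.844 (0.824 to 0.865), with a narrow counting interval, and its log2 difference was -0.24, or -0.43 after correction for gene length. B2M also pairs with some class I-like molecules coded outside the MHC. Of 5 listed class I-like genes outside the MHC 3 reached 1 FPKM. Of the 3, 0 were 1.5-fold lower, where 10.2% of all genes were, and 0 were 1.5-fold higher, where 8.97% were. HFE, which acts in iron sensing, had the highest level of these, 28.6 FPKM in CEL and 32.8 FPKM in Control.

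TAP1, a subunit of the peptide transporter, had 29.5 FPKM in CEL (1016 reads) and 39.9 FPKM in Control (1185 reads). The ratio was 0.739 (0.679 to 0.804), short of the 1.5-fold mark. Its partner TAP2 was listed at 0 in both libraries. Of its exonic bases 32.3% overlap another gene in GENCODE 29, and the rest overlap none. Whether the overlap bears on the level of 0 was not tested.

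TAPBP stood apart from the other 9 genes. Its row had 1.34 FPKM in CEL (36 reads) and 20.2 FPKM in Control (467 reads). The ratio of 0.0664 (0.0460 to 0.0933) is a 15.1-fold lower level in CEL, with a counting interval of 10.7 to 21.8, and the log2 difference of -3.18 was the 3rd lowest of the 13745 genes. In the Control library TAPBP lay near ERAP2, at 17.2 FPKM, and in the CEL library near HLA-C, at 1.28 FPKM. No exonic base of TAPBP overlaps another gene in GENCODE 29, and 4.73% of its 50-base windows occur in other genes. The overlap check did not cover the alternate sequences of the MHC. The TAPBP row may miss reads counted on those sequences, which was not tested.

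Other genes listed for the loading complex and for peptide editing and folding did not share the size of that difference. TAPBPL, the tapasin-related peptide editor, had 3.50 FPKM in CEL (73 reads) and 4.01 FPKM in Control (72 reads), a ratio of 0.874 with an interval of 0.622 to 1.23. CALR, the chaperone calreticulin, was 1.56-fold lower at 849.8 FPKM in CEL and 1321.9 FPKM in Control. CANX, the chaperone calnexin, had 837.4 FPKM in CEL and 713.0 FPKM in Control, and PDIA3, the thiol oxidoreductase bound to tapasin, had 364.8 FPKM in CEL and 333.2 FPKM in Control. Of the 5 genes in this list, 2 were lower, TAPBP among them, where 10.2% of all genes were. Of the same 5, 0 were higher, where 8.97% of all genes were, and the median was -0.15.

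The genes beside TAPBP on chromosome 6 went in both directions. Of 12 listed neighbours, 10 reached 1 FPKM, with a median of 0.20. Of the 10, 1 was lower, where 10.2% of all genes were, and 2 were higher, where 8.97% were. With counts this small, the neighbours cannot be told from those shares. DAXX, a histone chaperone gene, was lower, at 19.4 FPKM in CEL (441 reads) and 30.7 FPKM in Control (603 reads). PFDN6, a prefoldin subunit, had 30.1 FPKM in CEL and 15.1 FPKM in Control, and RPS18, a ribosomal protein, had 856.7 FPKM in CEL and 456.0 FPKM in Control. RGL2, which ends just before the TAPBP row begins, had 24.5 FPKM in CEL (662 reads) and 27.7 FPKM in Control (646 reads), a ratio of 0.883 (0.791 to 0.986).

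**Figure D2:**
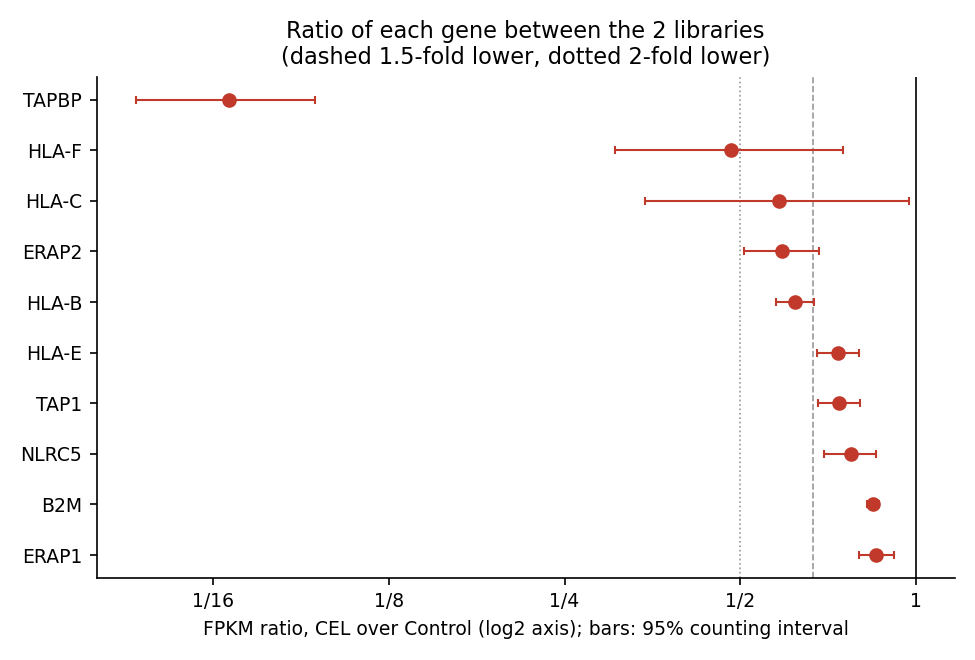
Ratio of CEL FPKM to Control FPKM for each of the 10 genes on a log axis, with 95% counting intervals; the dashed line marks 1.5-fold lower and the dotted line 2-fold lower. TAPBP lies at 0.0664 and the other genes between 0.482 and 0.856.

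The trimming aminopeptidases lie close together on chromosome 5 and differed in size. ERAP2 had 10.1 FPKM in CEL (311 reads) and 17.2 FPKM in Control (455 reads), 1.70-fold lower with an interval of 1.47 to 1.97. ERAP1 had 58.1 FPKM in CEL (1636 reads) and 67.8 FPKM in Control (1647 reads), 1.17-fold lower with an interval of 1.09 to 1.25. The 2 counting intervals did not overlap. Exons of CAST, on the other strand, overlap part of ERAP1, 6.94% of whose exonic bases are shared with other genes, and the strand setting of the counting is not given in the sources used here.

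NLRC5 had 18.9 FPKM in CEL (712 reads) and 24.5 FPKM in Control (794 reads). Its ratio was 0.773 (0.697 to 0.856), a log2 difference of -0.36. The 8 genes listed as its partners at class I promoters were all at 1 FPKM or more, with a median of 0.21. Of the 8, 1 was lower, where 10.2% of all genes were, and 0 were higher, where 8.97% were. With counts this small, the partners cannot be told from those shares. RFX5, the DNA-binding RFX subunit, was the one lower, at 48.5 FPKM in CEL (825 reads) and 75.2 FPKM in Control (1103 reads). RFXAP, another RFX subunit, had 5.53 FPKM in CEL and 3.85 FPKM in Control.

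The order of the levels was nearly the same in both libraries. From high to low it was B2M, HLA-B, ERAP1, HLA-E, TAP1, NLRC5, TAPBP, ERAP2, HLA-F and HLA-C in Control. In CEL it was the same for the first 6, then ERAP2, HLA-F, TAPBP and HLA-C. The counting intervals of neighbours in Control overlapped between TAPBP (18.4 to 22.1 FPKM) and ERAP2 (15.6 to 18.8 FPKM). In CEL they overlapped among HLA-F (1.46 to 2.97 FPKM), TAPBP (0.939 to 1.86 FPKM) and HLA-C (0.846 to 1.87 FPKM).

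None of the listed proteasome and cytosolic peptidase genes was at least 1.5-fold lower, where 10.2% of all genes were and 8.97% were higher. In lists this small a count of 0 lies near that share and is no result about these genes. Of 5 genes of the immunoproteasome and its activator, 0 were lower and 0 higher, with a median of 0.21. PSMB9, an interferon-induced subunit whose gene lies beside TAP1, had 21.8 FPKM in CEL (425 reads) and 22.4 FPKM in Control (376 reads), a ratio of 0.974 (0.846 to 1.12). PSME1, an activator subunit and the highest of these, had 191.7 FPKM in CEL and 165.0 FPKM in Control. Among the 3 catalytic subunits of the standard proteasome PSMB7 was the 1 at least 1.5-fold higher, at 347.0 FPKM in CEL and 203.4 FPKM in Control. Of 7 cytosolic peptidases 0 were lower or higher, with log2 differences from -0.07 to 0.36. NRDC, a metallopeptidase, had 111.0 FPKM in CEL, the highest of these there, and 89.3 FPKM in Control. In the list of folding and trafficking in the endoplasmic reticulum, HM13, a signal peptide peptidase that supplies peptides to HLA-E, was the 1 of 7 higher, at 469.1 FPKM in CEL and 311.0 FPKM in Control. These differences have no correction for gene length. Subtracting a length trend lowered B2M (1016 bases) from -0.24 to -0.43 and raised TAP1 (2002 bases) from -0.42 to -0.39. PSMB7 (666 bases) and HM13 (1152 bases) were not examined this way.

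Among genes listed for interferon and NF-kappaB signalling, a few were at least 1.5-fold lower, where 10.2% of all genes were. None was at least 1.5-fold higher, where 8.97% of all genes were. With counts this small, the lists cannot be told from those shares. Of 14 listed interferon signalling genes and IRF factors 12 reached 1 FPKM, of which 2 were lower and 0 higher, with a median of -0.22. Lower was STAT2, which carries the type I interferon signal, with 25.8 FPKM in CEL (1329 reads) and 40.7 FPKM in Control (1806 reads). Also lower was SOCS1, a feedback inhibitor of the pathway, with 1.30 FPKM in CEL (34 reads) and 2.67 FPKM in Control (60 reads). IRF1, an activator of class I genes, had 14.9 FPKM in CEL and 19.9 FPKM in Control, a ratio of 0.751 (0.655 to 0.861), short of the mark. TYK2, the kinase with the highest level in this list, had 97.1 FPKM in CEL and 115.8 FPKM in Control. Of 5 NF-kappaB subunits 1 was lower and 0 higher, with a median of -0.23. The lower one, RELB, a subunit of the alternative pathway, had 14.3 FPKM in CEL and 22.9 FPKM in Control. NFKB2, the partner of RELB, had 59.6 FPKM in CEL and 88.7 FPKM in Control, 1.49-fold lower and so just short of the mark. RELA, the highest, had 150.7 FPKM in CEL and 124.8 FPKM in Control.

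**Figure D3:**
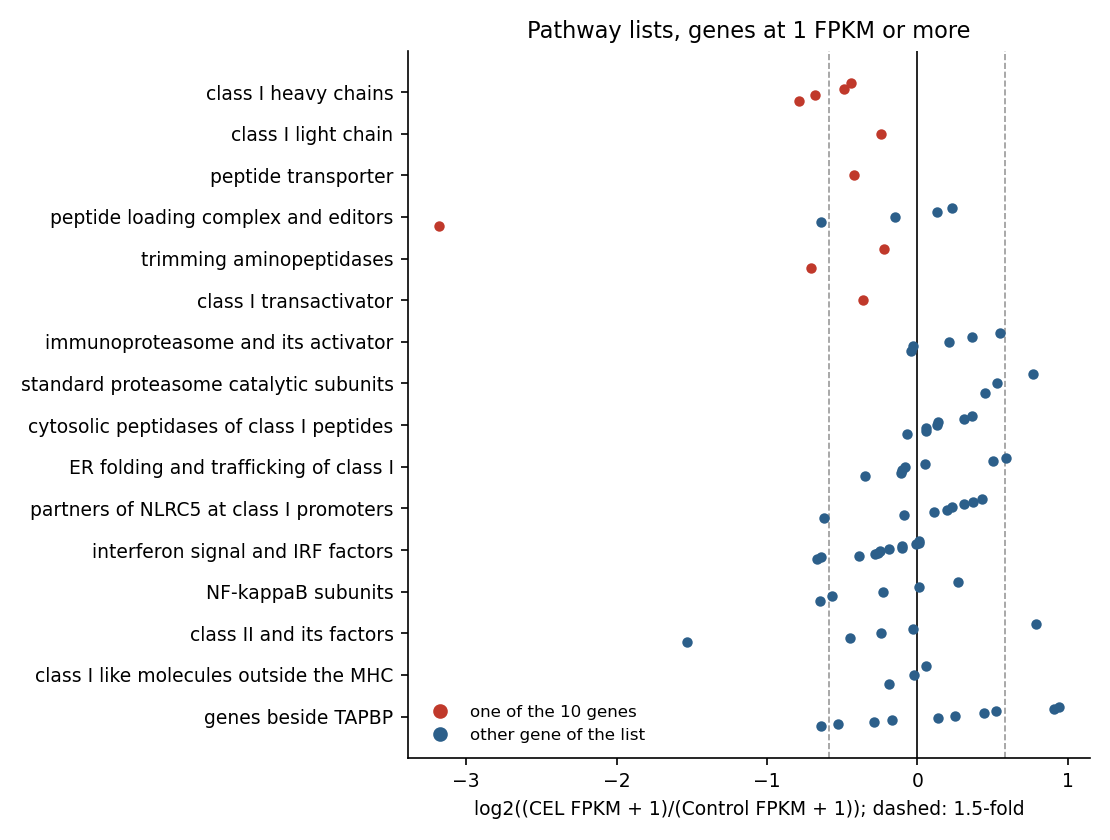
Difference of each listed gene as log2((CEL FPKM + 1)/(Control FPKM + 1)), 1 row per list and 1 point per gene at 1 FPKM or more. The heavy chain, transporter and trimming lists lie below 0, and the proteasome and cytosolic peptidase lists lie around or above 0.

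Class II presentation, which serves CD4+ T cells and has its own transactivator CIITA, was described beside class I. CIITA had 1.99 FPKM in CEL (89 reads) and 7.62 FPKM in Control (293 reads), a ratio of 0.262 (0.204 to 0.333). The invariant chain CD74 had 267.2 FPKM in CEL and 364.4 FPKM in Control, a log2 difference of -0.45. HLA-DMA, a peptide editor of class II, was higher on few reads, at 1.84 FPKM in CEL (30 reads) and 0.640 FPKM in Control (9 reads). Of 10 listed genes 5 reached 1 FPKM, of which 1 was lower and 1 higher. Over all 83 listed genes other than the 10, 69 reached 1 FPKM, of which 7 (10.1%) were lower and 5 (7.25%) were higher, with a median of 0.01. Those shares lie near the 10.2% and 8.97% of all genes.

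From 29 to 34 Mb of chromosome 6, 73 protein-coding genes reached 1 FPKM and had a median log2 difference of -0.03. Of these 10 (13.7%) were lower and 5 (6.85%) higher, against 8.23% and 7.60% of 11415 such genes elsewhere. The 73 include 6 of the genes described here, and TAPBP, HLA-F and HLA-B are among the lower ones. The share in the stretch is therefore not separate from the counts given above. TAPBP was the lowest of the 73, and the next, AGER, the receptor for advanced glycation end products, had a log2 difference of -1.36 on 12 reads in CEL and 51 reads in Control.

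**Figure D4:**
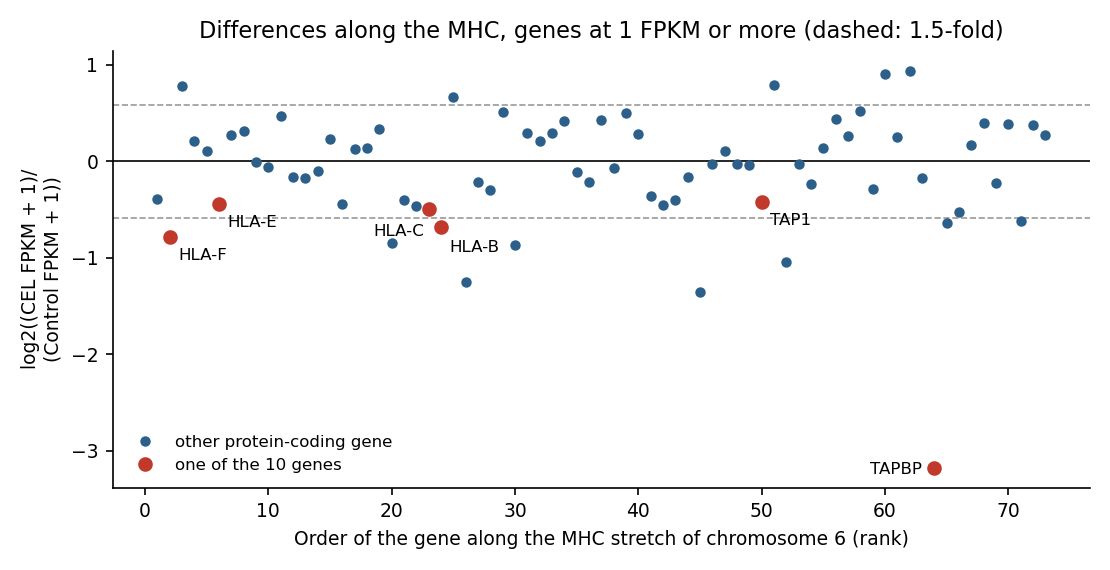
Log2((CEL FPKM + 1)/(Control FPKM + 1)) of each protein-coding gene that reached 1 FPKM, in order along 29 to 34 Mb of chromosome 6, with the 6 genes described here named. TAPBP lies at -3.18, below every other gene plotted.

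Overlap with other genes limits some of these rows. HLA-B shares 18.9% of its exonic bases with other genes in GENCODE 29, mostly with AL671883.2 on the other strand, and HLA-F 28.5%, including HLA-F-AS1, itself at 0.0989 FPKM in CEL and 0.0382 FPKM in Control. TAP1 shares 9.49%, with PSMB8-AS1 at 0 in both libraries. B2M, HLA-E, TAPBP, ERAP2 and NLRC5 share none. Of 50-base windows, 21.6% in HLA-F, 17.8% in HLA-B, 9.78% in TAP1, 5.70% in HLA-C, 5.10% in ERAP1 and 4.87% in HLA-E also occur in other genes.

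In the deposited GRCh38 coordinates the rows span chr6:31269491-31357188 for HLA-B (ENSG00000234745), chr6:31268749-31272130 for HLA-C (ENSG00000204525), chr6:30489509-30494194 for HLA-E (ENSG00000204592) and chr6:29722775-29738528 for HLA-F (ENSG00000204642). TAP1 (ENSG00000168394) spans chr6:32845209-32853978 and TAPBP (ENSG00000231925) chr6:33299694-33314387. Outside the MHC, B2M (ENSG00000166710) spans chr15:44711487-44718877, ERAP1 (ENSG00000164307) chr5:96760810-96808100, ERAP2 (ENSG00000164308) chr5:96875986-96919703 and NLRC5 (ENSG00000140853) chr16:56989485-57083531. The HLA-B and HLA-C rows as deposited overlap in part.

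The libraries held 17199398 reads in genes in CEL and 14821148 in Control. The line's label was checked by markers: VIM, CD44 and AXL, high in mesenchymal lines, lay between 349.9 and 1023.6 FPKM over both libraries, and the hormone receptor genes ESR1 and PGR were at 0 in both. The keratin KRT8, listed as low for this line, was at 646.9 FPKM in CEL and 545.2 FPKM in Control, ERBB2 was at 48.8 FPKM in CEL and 71.7 FPKM in Control, and EPCAM at 8.97 FPKM in CEL and 17.2 FPKM in Control. Immune cells also carry class I genes. Of 10 macrophage markers 2 reached 1 FPKM and 4 were at 0 in both libraries. CSF1R had 1.81 FPKM in CEL and 2.78 FPKM in Control, and CD14 had 1.36 FPKM in CEL and 1.92 FPKM in Control. Those at 0 were FCER1G, CD163, LYZ and AIF1. AIF1 lies in the stretch of chromosome 6 where a 0 is a listing and not absence of the transcript. The 10 markers had a sum of 3.81 FPKM in CEL and 4.87 FPKM in Control. In bulk RNA, fewer cells of a kind and less RNA per cell cannot be told apart.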

How the data were processed

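RNA sequencing of 2 MDA-MB-231 libraries was used, 1 per group, made from TRIzol RNA with a NEBNext Ultra kit per the labels' protocols. FPKM and gene lengths were deposited by the authors in 1 table. HTSeq 0.5.4 and GRCh38 were used per the submitters' processing notes; for the aligner, annotation release and strand setting, the sources used here give nothing. Whole reads were recovered from FPKM and length at a relative tolerance of 1e-06 for 100.0% of 24783 detected genes.

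Genes that reached 1 FPKM in either library were compared as log2 FPKM with a pseudocount of 1 FPKM, by rules of 1.5-fold and 2-fold. With 1 library per group there is no test. Ratios have exact conditional binomial 95% intervals and levels Poisson 95% intervals, for counting error only. The limit that 0 reads allow, taken as 3 reads, equals 0.174 FPKM in CEL and 0.202 FPKM in Control at 1 kb. The 354 unnamed rows held 0.265% of CEL reads and 0.298% of Control reads.

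The genes and lists were chosen with earlier results of these data known. Named were the 10 genes, listed genes past 1.5-fold, the highest of each list, overlapping genes, and others chosen after their values were seen. Some listed genes are not reported here. Overlaps came from GENCODE 29 and promoter windows from RefSeq. The steps were tested on simulated data. Figures were drawn with matplotlib 3.10.9, and values computed with scipy 1.17.1, numpy 2.4.6 and pandas 2.3.3 in Python 3.11.15.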

Additional observations from a re-analysis of the deposited data

Results flagged for a closer look

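Signal appeared in rows that no named gene carries: 6 unnamed rows on 5 alternate sequences of the MHC held 50 FPKM or more. They are among the 31 alternate rows summed above and hold 90.1% of the reads of those rows in CEL and 92.9% in Control. Their positions are those of the alternate sequences and need not equal those of the primary chromosome. On the COX sequence the row from 31344345 to 31347712 had 349.5 FPKM in CEL and 527.0 FPKM in Control, a ratio of 0.663 (0.645 to 0.682). On the QBL sequence the row from 31345313 to 31347815 had 105.3 FPKM in CEL and 168.5 FPKM in Control, a ratio of 0.625 (0.589 to 0.663). The MANN row from 31312248 to 31315647 had 129.9 FPKM in CEL and 160.1 FPKM in Control, a ratio of 0.811 (0.763 to 0.862).

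The MCF sequence held 2 of the rows. The row from 31430865 to 31434103 had 101.7 FPKM in CEL and 149.7 FPKM in Control, a ratio of 0.679 (0.637 to 0.724). The row from 31345896 to 31349769 had 50.9 FPKM in CEL and 57.3 FPKM in Control, a ratio of 0.888 (0.825 to 0.957). The DBB row from 31260951 to 31264395 had 117.8 FPKM in CEL and 133.6 FPKM in Control, a ratio of 0.882 (0.839 to 0.926). The level was lower in CEL in 6 of 6 rows, as it was in 49.8% of the 13745 named genes at 1 FPKM or more. The 6 rows were taken by their level, and the direction of each other alternate row is not given here. All 6 start between 31260951 and 31430865 on alternate sequences of the MHC. Whether they are separate observations was not tested. Together, as a subset of the sum given above, the 6 rows had 19451 reads in CEL and 23380 reads in Control, a ratio of 0.717 (0.703 to 0.731). The sources used here name no gene for them.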

How the results depend on the processing

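Of the 10 genes, 4 were at least 1.5-fold lower as reported, where 10.2% of all genes were. With a pseudocount of 5 FPKM 2 were, where 3.56% of all genes were, and under a 2-fold rule 1 was, where 3.24% were. In 2 checks chosen after seeing the data, 1 of the 4 genes outside the MHC was lower, with a median of -0.30, and 2 of the 7 genes at 5 FPKM or more in both libraries were lower, with a median of -0.42. With a pseudocount of 0.1 FPKM 5 were lower, against 14.1% of all genes, with TPM 5, against 13.6%, and with a filter at 5 FPKM 3 of 8, against 7.42%. The count was 4 with no filter (7.12% of all genes), with median and with trimmed mean scaling (11.7% in both) and with a length trend subtracted (13.0%). In each of these settings 0 genes were higher, and every one of the 10 that was measured lay below 0, where 49.8% of all genes did in the reported setting. The median ranged from -0.57 to -0.39 over the 9 planned settings, TAPBP from -3.82 to -1.99, B2M from -0.43 to -0.24 and HLA-C from -0.74 to -0.20. Summing rows that carry the same gene name on alternate sequences gave no value, because each name has 1 row. Leaving out a replicate was not possible with 1 library per group. No paired analysis was possible because the groups have 1 library each. Depth limits HLA-C and HLA-F most, at 27 and 33 reads in CEL, and TAPBP at 36.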

Other observations

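Other genes of the MHC stretch, named after their values were seen, differed in both directions. BRD2, a chromatin reader, had 14.1 FPKM in CEL (509 reads) and 30.2 FPKM in Control (937 reads). DDR1, a collagen receptor kinase, had 18.4 FPKM in CEL and 33.8 FPKM in Control. MICA, a stress-induced ligand of the NKG2D receptor, was higher, at 23.0 FPKM in CEL (485 reads) and 14.1 FPKM in Control (256 reads).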
